A study of Homo sapiens with 18 samples.

Results

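The small molecules 10CA and 6N were set against each other in HepG2 cells, a human liver tumour line, at the same dose of 10 µM. The comparison takes the 3 libraries of cells given 10CA and the 3 of cells given 6N out of 18 libraries in the series. It covers all 14797 genes that passed the filter on low counts, of 35238 rows in the table. The other groups that stand beside them are the vehicle DMSO at 0.1% and a further small molecule, 6N-10CA, at 10 µM, with 3 libraries each. Ethanol at 0.1% and the phospholipid DLPC at 100 µM make up the rest of the series. All groups were the same cell line, which is a tumour line and not primary liver, and all were treated in medium whose serum had been charcoal-stripped. The length of treatment is not given in the sources used here, and 10CA and 6N are known from the labels by their code names alone. The title of the series names LRH-1, the nuclear receptor encoded by NR5A2, as the protein under study.

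Liver cells make cholesterol and fatty acids under the control of the SREBP transcription factors. SREBP2, encoded by SREBF2, is released from the endoplasmic reticulum when sterols are low and turns on the synthesis and uptake of cholesterol, and SREBP1, encoded by SREBF1, turns on fatty acid synthesis and desaturation. LXR, a receptor for oxidised sterols, raises SREBF1 transcription and induces MYLIP, a ubiquitin ligase. LRH-1 binds genes of bile acid synthesis such as CYP7A1 and NR0B2, and the aryl hydrocarbon receptor turns on CYP1A1 when it binds a ligand.

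At the same dose, 15 of 22 tested genes of cholesterol synthesis, 5 of 10 of fatty acid synthesis and 9 of 17 of the desaturation, elongation and activation of fatty acids were higher with 10CA than with 6N, and 0 were lower. CYP1A1 was lower with 10CA, as were 4 of 16 phase 1 genes of drug metabolism, of which 1 was higher, while 3 of 20 conjugating enzymes were higher and 3 lower. Of the 14797 genes tested, 253 (1.71%) differed between the molecules at an adjusted p under 0.05 (quasi-likelihood test of edgeR, p-values adjusted after Benjamini and Hochberg). There were 155 genes (1.05%) higher with 10CA and 98 (0.662%) lower. This was the only pair of molecules compared here, and p-values were adjusted over genes alone. The comparison was chosen with earlier results of these data known, a choice that the adjustment does not cover. Most of the differences were small, with a median size of 0.33 on the log2 scale among the called genes. Only 9 of the called genes differed more than 2-fold, 5 higher and 4 lower with 10CA, and 43 differed more than 1.5-fold, 29 higher and 14 lower. In all 253 the libraries of the 2 groups did not overlap, a property that 2475 of the tested genes (16.7%) had. With the replicate number as a block in the fit, the count of called genes was 1133 (7.66%), 612 higher (4.14%) and 521 lower (3.52%), and it held all 253 in the same direction. Leaving out a library moved the count of 253 to 141 without 10CA replicate 3, to 148 without 6N replicate 1 and to 157 without 6N replicate 2, and to 338 without 6N replicate 3.

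**Figure D1:**
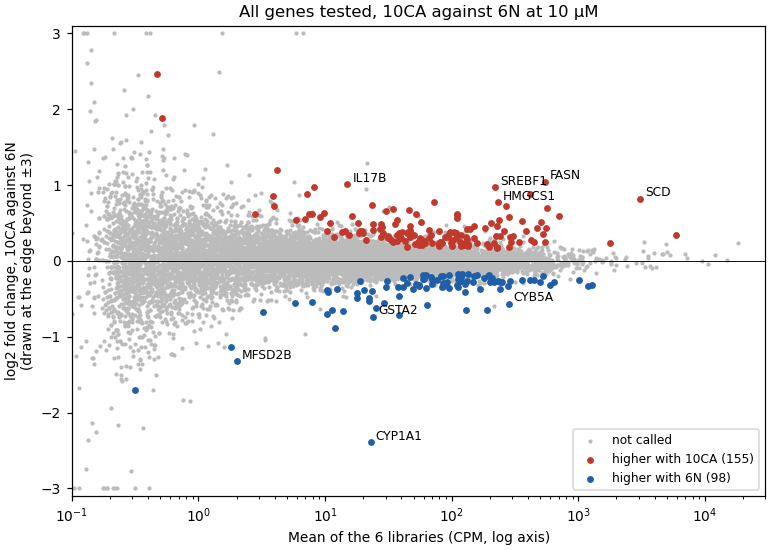
The log2 fold change of 10CA against 6N is plotted for each tested gene against its mean level in the 6 libraries in CPM (counts scaled to the size of the library, log axis), with called genes in colour. The 155 genes higher with 10CA lie above the line and the 98 higher with 6N below it, with CYP1A1 the lowest of the labelled genes at -2.39.

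The 6 libraries held 29083284 to 33738062 counts each, so that 3 counts, used as the floor, correspond to 0.0889 to 0.103 CPM. Mitochondrial mRNAs took 0.427 to 0.453% of the counts with 6N and 0.391 to 0.416% with 10CA. Of the 10686 genes at 5 CPM or more, 94.9% had a 95% interval of the log2 difference that lay within 0.5 to either side of 0. None of the 15 markers of hepatocyte-derived HepG2 cells was called, and their levels summed to 68020 to 78870 CPM of the total counts with 6N and to 75120 to 81570 with 10CA. Among 7 stromal markers 6 stayed under 1 CPM in all 6 libraries. The remaining one, PDGFRB, was called at 0.62 (adjusted p = 0.0449 by edgeR's test), and the list summed to 6.43 to 7.35 CPM with 6N and 9.71 to 11.3 with 10CA. Endothelial markers (5, of which 3 were tested and KDR and TEK were at 0) and blood and macrophage markers (7, of which 2 were tested and 5 stayed under 1 CPM) had 0 called. Cholangiocyte markers (5, of which 3 were tested) had 0 called as well, but their levels summed to 1016 to 1074 CPM with 6N and to 1146 to 1174 with 10CA, which do not overlap. Of these markers KRT19 ran from 462 to 560 CPM with 6N and from 561 to 618 with 10CA (0.22, adjusted p = 0.116 by edgeR's test), and KRT7 stayed under 1 CPM. The part of other cell types in the results was not tested, and in a bulk culture fewer cells of a kind and less RNA per cell cannot be told apart.

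Across 38 gene lists on liver metabolism, stress and growth, 679 distinct members were tested and 82 of them (12.1%) were called, 54 higher and 28 lower with 10CA. With the replicate block 193 (28.4%) were called, 120 higher and 73 lower. The median log2 difference of all tested genes was 0.00. By the share of members called, the 5 lists of sterol and fatty acid synthesis stood at the top. Of their 64 tested members 34 were higher with 10CA and 0 lower, with a median of 0.26. By median, SREBP2 control and cholesterol uptake (0.120) lay below hypoxia-responsive genes (0.130) and LXR targets (0.124).

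**Figure D2:**
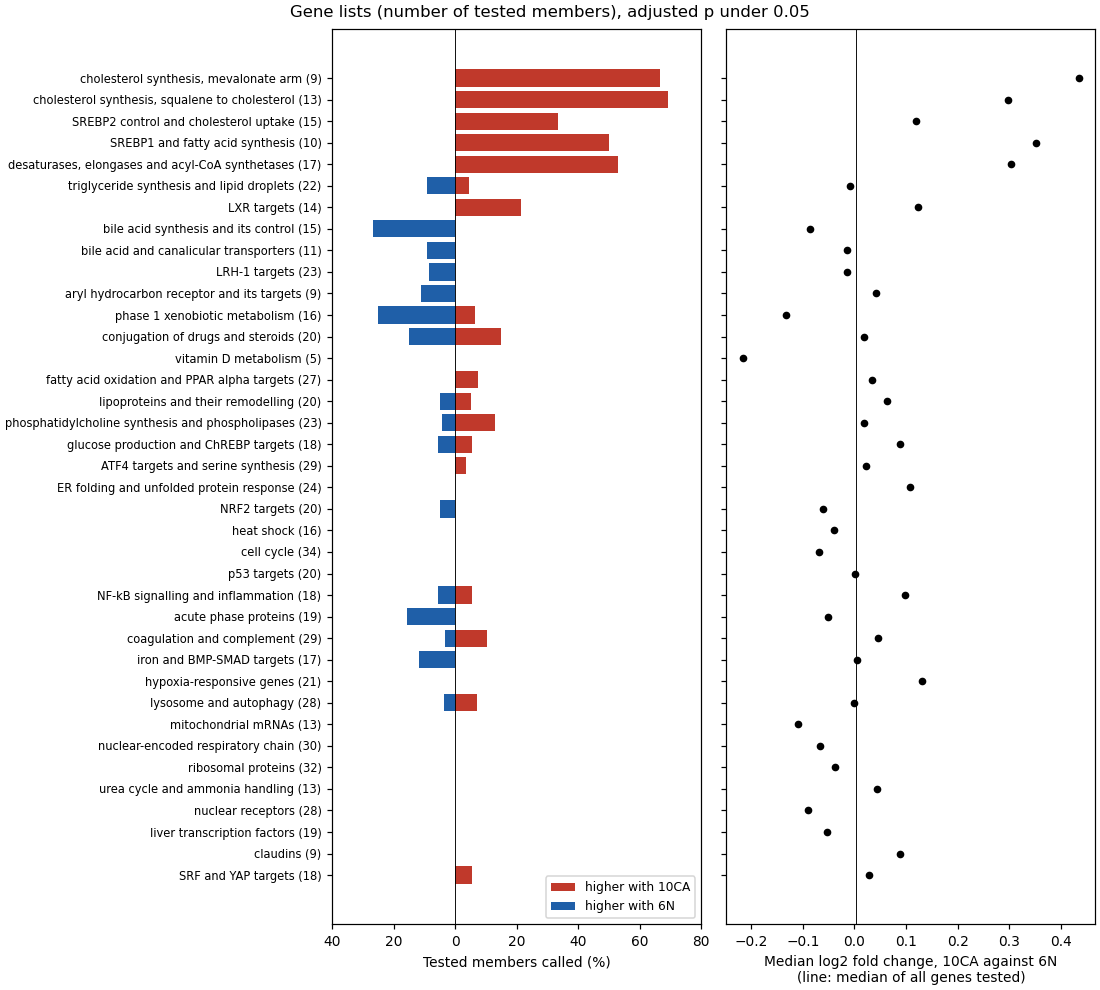
For each of the 38 lists the left panel gives the percent of tested members called higher with 10CA (right of 0) or higher with 6N (left of 0), and the right panel the median log2 fold change, with a line at the median of all tested genes. The bars of the 5 sterol and fatty acid lists reach right only, while that of bile acid synthesis reaches left only. Other lists also reach to a single side, among them LXR targets (right) and bile acid transporters (left).

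The promoters of the sterol genes are shown first because SREBP2 acts there together with NF-Y, a factor that binds the CCAAT box. Of the 15 called genes of cholesterol synthesis, 10 had a promoter entry in RefSeq (GRCh38.p14). HMGCS1, IDI1, DHCR7 and SC5D had more than 1 entry, each for another start site, and a gene was counted where any entry held the motif. The 250 bases before a start site held CCAAT on either strand in 9 of the 10 (90%). The same window held it in 41.2% of the 10544 tested genes with an entry and in 37% of all 27305 genes with one. With the first entry of each gene alone, a count added after the values were seen, it was in 8 of the 10 (80%) and in 34.8% of the tested genes. A sterol regulatory element searched as TCACNCCAC on either strand was in 0 of these 10 and in 1.25% of the tested genes with an entry, and SREBF2 itself held it 133 bases before its start. The motif of the aryl hydrocarbon receptor, searched as TNGCGTG on either strand, was in 3 of the 10 (30%) and in 7.84% of the tested genes, or in 1 (10%) and 6.04% by the first entry, and it was not in the window of CYP1A1. That of LRH-1, CAAGGTCA, was in 0 of the 10 and in 1.04% of the tested genes. The motifs were counted separately, whether or not they overlapped. These matches are a description of the letters in the window. At such low shares as those of the sterol and LRH-1 motifs, 0 of 10 promoters cannot show that an element is missing. Sites with other letters or outside the window were not searched.
The promoters of 3 synthesis enzymes with 2 or more CCAAT boxes and of SREBF2 follow, each 250 bases long and ending at the base before the start site, written 5′ to 3′ on the strand of the gene. For HMGCS1 the first of its entries is shown, and the other held no CCAAT. Both start within the gene as annotated here, as do the entries shown for MVD, MSMO1 and SREBF2. Capitals mark CCAAT or its reverse complement ATTGG and, in SREBF2, also the sterol regulatory element.
HMGCS1, chr5:43313413-43313662, minus strand: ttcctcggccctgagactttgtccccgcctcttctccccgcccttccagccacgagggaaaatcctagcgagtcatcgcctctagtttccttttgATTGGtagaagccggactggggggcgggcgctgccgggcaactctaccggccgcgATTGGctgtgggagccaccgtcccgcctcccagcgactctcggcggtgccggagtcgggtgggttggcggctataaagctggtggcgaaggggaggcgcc
MVD, chr16:88663092-88663341, minus strand: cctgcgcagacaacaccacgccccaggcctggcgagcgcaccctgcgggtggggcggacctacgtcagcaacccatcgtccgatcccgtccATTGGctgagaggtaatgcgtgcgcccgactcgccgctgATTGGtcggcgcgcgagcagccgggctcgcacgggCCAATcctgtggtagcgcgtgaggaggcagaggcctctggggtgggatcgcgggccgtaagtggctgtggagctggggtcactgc
MSMO1, chr4:165327419-165327668, plus strand: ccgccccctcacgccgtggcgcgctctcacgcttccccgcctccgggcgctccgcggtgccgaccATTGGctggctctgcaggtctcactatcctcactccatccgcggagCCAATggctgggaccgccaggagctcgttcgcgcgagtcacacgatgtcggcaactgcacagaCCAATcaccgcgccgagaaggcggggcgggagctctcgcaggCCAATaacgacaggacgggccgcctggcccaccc
SREBF2, chr22:41832855-41833104, plus strand: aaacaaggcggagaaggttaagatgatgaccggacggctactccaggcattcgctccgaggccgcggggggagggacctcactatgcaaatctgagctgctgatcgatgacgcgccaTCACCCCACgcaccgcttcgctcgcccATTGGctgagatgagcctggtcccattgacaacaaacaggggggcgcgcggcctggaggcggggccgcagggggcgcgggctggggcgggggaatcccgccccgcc
The boxes began 155 and 100 bases before the start in HMGCS1, 159, 120 and 85 in MVD, 185, 139, 76 and 34 in MSMO1 and 106 in SREBF2.

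Both SREBP genes were higher with 10CA. SREBF1 (chromosome 17, 17810399 to 17837002) stood at 142, 163 and 143 CPM in the 6N libraries and at 270, 310 and 301 CPM in the 10CA libraries. Every 10CA library was well above every 6N library, and the log2 difference was 0.97 (SE 0.07, 95% interval 0.83 to 1.12, adjusted p = 1.151e-07 by edgeR's test). SREBF2 stood at 274, 263 and 269 CPM with 6N and at 354, 319 and 343 CPM with 10CA, a smaller gap of 0.33 (SE 0.05, adjusted p = 0.001331 by the same test). In DMSO the 2 genes stood at 307 ± 15.8 and 338 ± 11.5 CPM (mean ± SD, n = 3), which is among the 10CA libraries for each.

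The first arm of cholesterol synthesis builds isoprenoids from acetyl-CoA through mevalonate. Of its 9 members 6 were higher with 10CA and 0 lower, and the median of the 9 was 0.43. HMGCS1 (chromosome 5, 43289395 to 43313512), which makes HMG-CoA, had 165, 169 and 178 CPM with 6N and 265, 313 and 300 CPM with 10CA. The groups were far apart, at a log2 difference of 0.78 (SE 0.06, adjusted p = 5.476e-07 by edgeR's test). The decarboxylase MVD had 208, 190 and 184 CPM against 272, 293 and 281 CPM (0.54, SE 0.06, adjusted p = 1.541e-05 by the same test). Its groups did not overlap either, and FDPS (0.43), IDI1 (0.43) and ACAT2 (0.25) were also among the called members. ACAT2 lost its call without 10CA replicate 1 (adjusted p = 0.05585), 10CA replicate 2 (0.09721), 6N replicate 2 (0.07553) or 6N replicate 3 (0.06603).

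The second arm turns farnesyl diphosphate into squalene, closes the sterol rings and ends in cholesterol. Of its 13 members 9 were higher with 10CA and 0 lower, with a median of 0.30. FDFT1, squalene synthase, had 443, 407 and 408 CPM with 6N and 599, 597 and 593 CPM with 10CA. The 10CA libraries lay close together and all above those of 6N, at 0.51 (SE 0.05, adjusted p = 4.264e-06 by edgeR's test). LSS, which closes the sterol ring, had 312, 291 and 284 CPM against 427, 452 and 400 CPM (0.53, SE 0.06, adjusted p = 5.768e-05 by the same test). Also called were MSMO1 (0.46), DHCR7 (0.36), SQLE (0.33), CYP51A1 (0.33), SC5D (0.30) and HSD17B7 (0.24). Between 6 and 9 members of this arm were called when a library was left out. SC5D and HSD17B7 each lost the call without several libraries, with adjusted p up to 0.1362 for SC5D without 6N replicate 2 and 0.2387 for HSD17B7 without 10CA replicate 3. DHCR7 lost it without 6N replicate 2 (0.05983). All 22 members of the 2 arms had a log2 difference above 0, as did 7570 of all 14797 tested genes. Such a shared sign was also seen without calls, as 0 of 13 mitochondrial mRNAs lay above 0.

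Of 15 tested genes of cholesterol uptake and SREBP2 control, out of 16, 5 were higher with 10CA and 0 lower (8 higher with the replicate block), with a median of 0.12. STARD4, a sterol carrier, had 28.5, 28.8 and 31.5 CPM with 6N and 37.6, 42.9 and 43.6 CPM with 10CA. The groups did not overlap, at 0.48 (SE 0.08, adjusted p = 0.001341 by edgeR's test). NPC1L1, which imports cholesterol, was also higher with 10CA (0.34), and not called without 6N replicate 1 (adjusted p = 0.05257). SCARB1, the receptor for HDL, was at -0.04 (95% interval -0.15 to 0.08), and its groups overlapped.

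In fatty acid synthesis, of 10 members tested, out of 12, 5 were higher with 10CA and 0 lower, with a median of 0.35. FASN (chromosome 17, 82078333 to 82098332), the fatty acid synthase, had 325, 376 and 363 CPM with 6N and 662, 759 and 775 CPM with 10CA. The level with 10CA was 2.06-fold that with 6N, at a log2 difference of 1.05 (SE 0.09, adjusted p = 2.074e-06 by edgeR's test). ACACA, which makes malonyl-CoA, had 47.8, 55.6 and 56.9 CPM against 88.5, 99.9 and 85.5 CPM (0.77, SE 0.09). The sources of acetyl-CoA in the cytosol were higher as well, ACSS2 at 0.56 and ACLY at 0.43.

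Among 17 genes of the desaturation, elongation and activation of fatty acids 9 were higher with 10CA and 0 lower, with a median of 0.30. SCD (chromosome 10, 100347124 to 100364834), which puts the first double bond into saturated fatty acids, had 2292, 2056 and 2269 CPM with 6N and 3881, 3934 and 3880 CPM with 10CA. The gap of 0.82 (SE 0.05, adjusted p = 3.157e-08 by edgeR's test) gave the smallest p of all tested genes. FADS2, the delta-6 desaturase, had 319, 276 and 274 CPM against 544, 541 and 521 CPM (0.89, SE 0.06, adjusted p = 6.382e-08 by the same test). The 10CA libraries of both genes were close to each other and clear of those of 6N. The other members called were ACSL3 (0.72), ELOVL6 (0.66), ACSL4 (0.50), FADS1 (0.39), ACSL1 (0.36), HSD17B12 (0.35) and ELOVL5 (0.30).

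**Figure D3:**
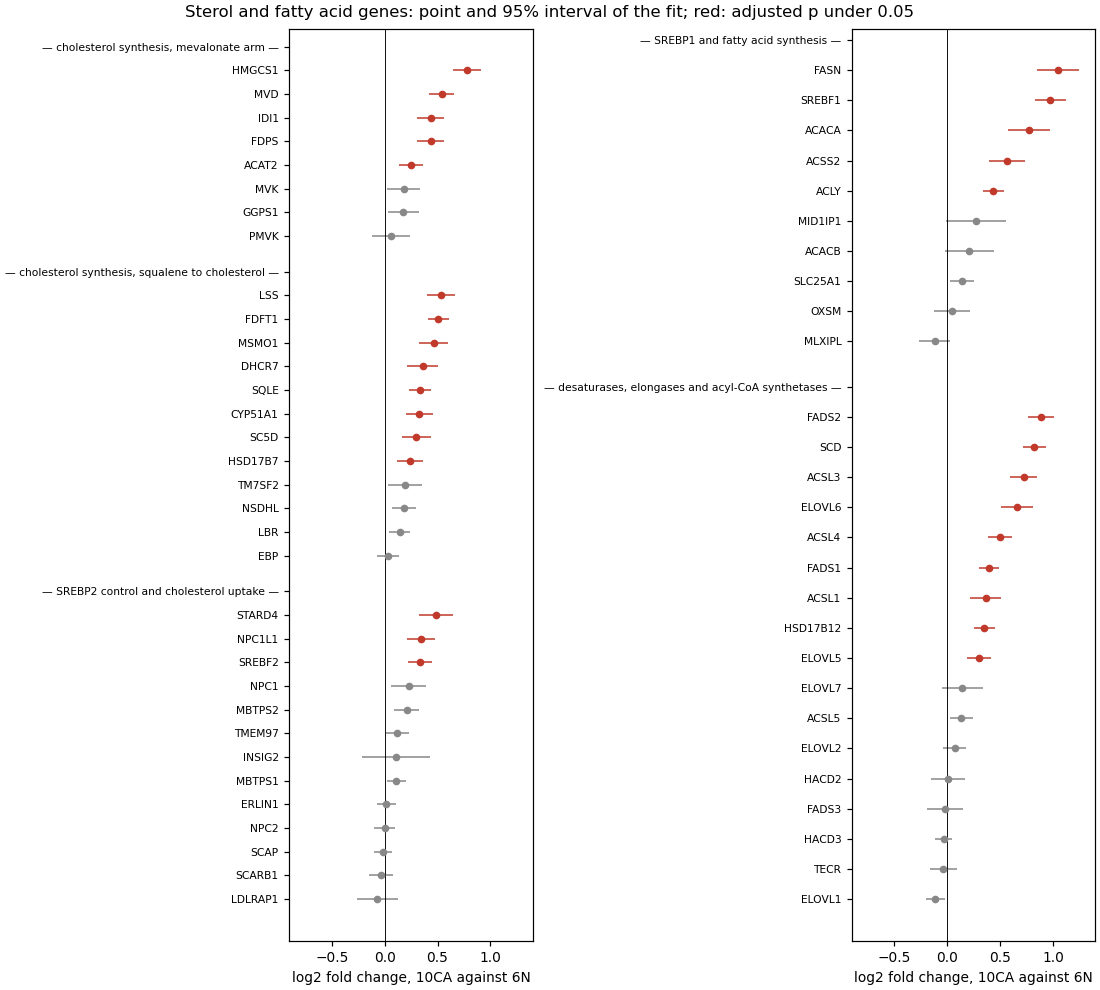
Each point is the log2 fold change of 10CA against 6N of a member of the 5 sterol and fatty acid lists, with its 95% interval, and red marks an adjusted p under 0.05. The 5 lists have 64 tested members, and 4 of them, all called, are not drawn. Of the 60 points drawn 30 are red, and these lie to the right of 0, from 0.24 for HSD17B7 to 1.05 for FASN.

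Of 22 members of the triglyceride and lipid droplet list 1 was higher with 10CA and 2 were lower. PNPLA3, a lipid droplet lipase, was the higher one (0.39), and DGAT1 and DGAT2, which add the last fatty acid, were lower (-0.28 each). DGAT2 had 215, 232 and 215 CPM with 6N and 178, 190 and 176 CPM with 10CA (SE 0.05, adjusted p = 0.002786 by edgeR's test), and DGAT1 had 175, 150 and 163 CPM against 139, 132 and 131 CPM (SE 0.05, adjusted p = 0.003969, and 0.07149 in a fit of the 2 groups alone). With the replicate block 5 members were higher and 2 lower, and the median of the list was -0.01.

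Among 14 LXR targets 3 were higher with 10CA and 0 lower, with a median of 0.12. They were SREBF1, MYLIP and LPCAT3, a lysophospholipid acyltransferase. MYLIP (chromosome 6, 16129125 to 16148248) had 5.39, 5.07 and 4.68 CPM with 6N and 9.63, 10.4 and 7.92 CPM with 10CA. The groups did not overlap, at 0.89 (SE 0.12, adjusted p = 0.0001515 by edgeR's test). LPCAT3 differed by 0.37 (SE 0.05). ABCG5 and ABCG8, which export sterols, were at 0.13 (95% interval -0.03 to 0.29) and 0.11 (0.01 to 0.21), and neither was called.

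CYP1A1 (chromosome 15, 74719542 to 74725610), the cytochrome induced by ligands of the aryl hydrocarbon receptor, had the largest difference among the called genes at 1 CPM or more. It had 36.9, 41.3 and 37.0 CPM with 6N and 4.97, 11.4 and 5.59 CPM with 10CA. The level with 6N was 5.23-fold that with 10CA, and 10CA replicate 2 stood apart from the other two of its group without reaching the 6N libraries. The log2 difference was -2.39 (SE 0.23, 95% interval -2.87 to -1.90, adjusted p = 4.633e-06 by edgeR's test). DMSO stood at 9.97 ± 1.21 CPM (SD, n = 3), so that the 6N libraries were above DMSO (log2 difference 1.95, adjusted p = 3.243e-05) and the 10CA mean was at -0.44 against it (adjusted p = 0.7477). CYP1A1 was the only 1 of 9 tested members of the aryl hydrocarbon receptor list that was called. With the replicate block NQO1, a quinone reductase, was called as well, at 0.11 and thus in the other direction, and TIPARP, a repressor of the receptor, was at 0.05 (95% interval -0.10 to 0.21).

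Of 16 phase 1 genes of drug metabolism, 1 was higher and 4 were lower with 10CA, with a median of -0.13 (2 higher and 4 lower with the replicate block). CYB5A (chromosome 18, 74250847 to 74292016), the cytochrome b5 that passes electrons to P450 enzymes and to desaturases, had 363, 320 and 323 CPM with 6N and 235, 216 and 230 CPM with 10CA. All 10CA libraries lay below all 6N libraries, at -0.56 (SE 0.06, adjusted p = 8.793e-06 by edgeR's test). The DMSO mean was lower than both, at 190 ± 5.82 CPM (SD, n = 3). Against DMSO, CYB5A was at 0.82 with 6N (adjusted p = 4.325e-08 by edgeR's test). With 10CA it was at 0.26 (adjusted p = 0.5728 by the same test, 0.003378 with the replicate block). CYP3A7 had 16.7, 13.3 and 16.2 CPM against 7.36, 8.99 and 8.68 CPM (-0.89, SE 0.12, adjusted p = 0.0003305), and CYP3A5 stood at -0.54. Reads of the CYP3A genes can be split between close relatives, so the share of each is uncertain. POR, the reductase that serves all microsomal P450 enzymes, was at -0.27, and the alcohol dehydrogenase ADH4 was at 0.38. Without 1 library at a time 2 to 4 of the lower genes were called: CYP3A5 lost its call without 10CA replicate 2 (adjusted p = 0.06099), 10CA replicate 3 (0.09105) or 6N replicate 2 (0.1113), and POR without 10CA replicate 2 (0.05409) or 6N replicate 1 (0.0561).

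Conjugating enzymes split in both directions, 3 of 20 higher and 3 lower. GSTA2 (chromosome 6, 52750089 to 52763569), a glutathione transferase, had 31.3, 29.5 and 28.9 CPM with 6N and 17.8, 18.9 and 17.2 CPM with 10CA. The gap was -0.74 (SE 0.08, adjusted p = 1.421e-05 by edgeR's test), and its near copy GSTA1 stood at -0.65. The sulfotransferase SULT2A1, which acts on steroids and bile acids, was at -0.28. The glucuronosyltransferases UGT2B4 and UGT2B10 were higher with 10CA at 0.49 and 0.48, and the oestrogen sulfotransferase SULT1E1 at 0.40 (adjusted p = 0.05161 without 6N replicate 2). GSTA1 and GSTA2, like UGT2B4 and UGT2B10, are near copies that can share reads. CYP24A1, which breaks down vitamin D, had 2.61, 1.74 and 2.16 CPM with 6N and 1.20, 1.01 and 0.756 CPM with 10CA. The groups did not overlap, yet its difference of -1.13 was not called (SE 0.32, adjusted p = 0.0879, and 0.02914 with the replicate block).

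**Figure D4:**
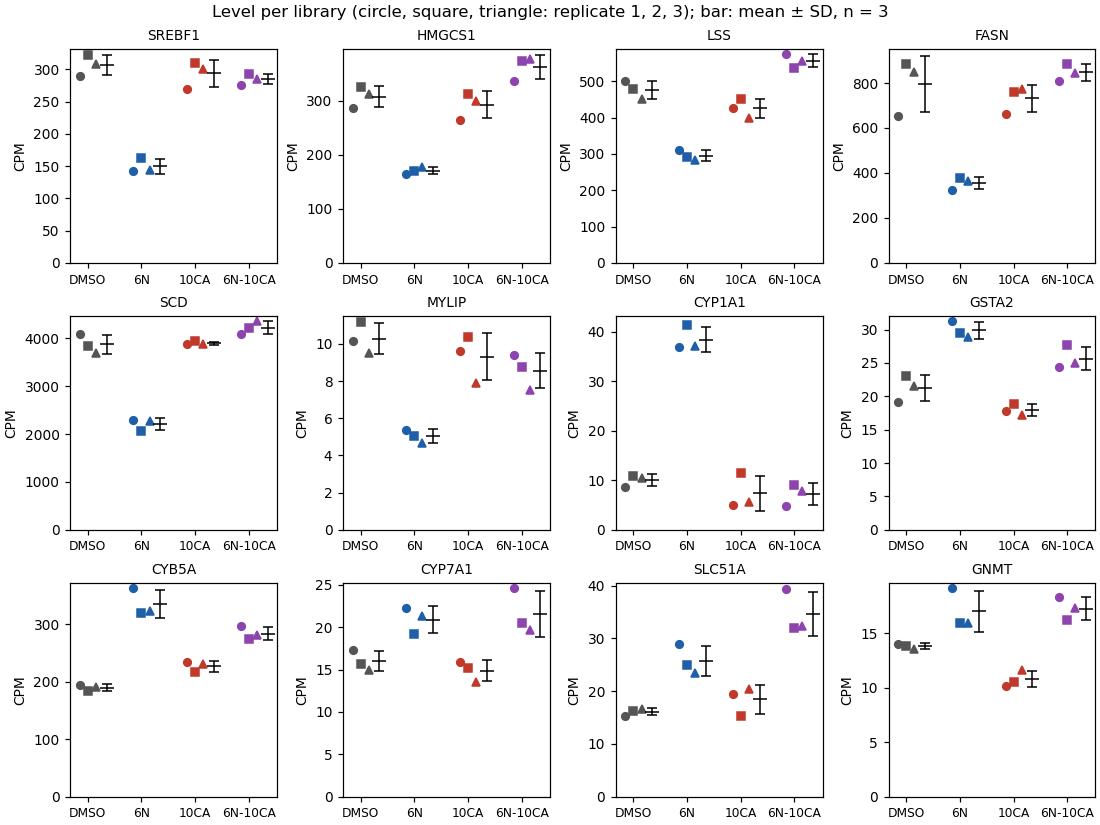
Levels in CPM of 12 genes are shown for each library of DMSO, 6N, 10CA and 6N-10CA, with the mean and SD of the 3 libraries beside them. For the lipid genes in the first 6 panels the 6N libraries lie below the other 3 groups, and for CYP1A1 they lie above them.

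NR5A2, the gene of LRH-1, had 3.56, 4.40 and 3.84 CPM with 6N and 3.62, 4.85 and 4.44 CPM with 10CA. These overlap, and the interval of the log2 difference ran from -0.26 to 0.52. Of 23 LRH-1 targets tested, out of 26, 0 were higher and 2 were lower with 10CA, CYP7A1 and SHBG, with a median of -0.01. With the replicate block 4 were lower and 1 higher. SHBG, the carrier of sex steroids, had 21.1, 18.7 and 21.1 CPM with 6N and 16.1, 13.9 and 15.4 CPM with 10CA (-0.42, SE 0.08, adjusted p = 0.0051 by edgeR's test, and 0.06091 in a fit of the 2 groups alone). NR0B2, which encodes the repressor SHP, had 101, 79.3 and 97.8 CPM against 74.6, 66.9 and 90.4 CPM. Its groups overlapped, and it was not called (-0.27, adjusted p = 0.4703 by edgeR's test, 0.008104 with the replicate block). STAR, the mitochondrial cholesterol carrier, was at -0.40 (adjusted p = 0.1038, 0.009586 with the block) and APOM at 0.28 (0.4293, 0.001531 with the block). CYP19A1, which encodes aromatase, was at -0.18 with an interval of -0.36 to 0.00, and was not called.

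Of 15 members of bile acid synthesis and its control, 0 were higher and 4 lower with 10CA, with a median of -0.09 (1 lower when the fit held only these 2 groups). CYP7A1, the rate-limiting enzyme of the classic pathway, had 22.3, 19.2 and 21.3 CPM with 6N and 15.9, 15.2 and 13.5 CPM with 10CA. The groups did not overlap, at -0.49 (SE 0.10, 95% interval -0.71 to -0.28, adjusted p = 0.01474 by edgeR's test, 3.707e-05 with the replicate block). It was not called without 10CA replicate 3 (adjusted p = 0.1118) or without 6N replicate 1 (0.0828). The others were KLB, the co-receptor of FGF19, at -0.28, HSD3B7 at -0.22 and CYP27A1, which opens the alternative pathway, at -0.20. Their adjusted p-values lay between 0.03858 and 0.04126, and leaving out a library left 0 to 3 members called, with 0 without 10CA replicate 3 or 6N replicate 1. Among 11 bile acid transporters SLC51A (chromosome 3, 196211487 to 196243178), the alpha chain of the exporter that moves bile acids into the blood, was called. It had 28.96, 24.9 and 23.4 CPM with 6N and 19.4, 15.4 and 20.5 CPM with 10CA (-0.48, SE 0.11, adjusted p = 0.02912 by edgeR's test, 0.0005892 with the replicate block). Its call was lost without 10CA replicate 1 (0.05043), 10CA replicate 2 (0.1205), 6N replicate 1 (0.1654) or 6N replicate 2 (0.06519). CYP8B1, which makes cholic acid, was at -0.10 with an interval of -0.30 to 0.11.

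Among 20 lipoprotein genes 1 was higher and 1 lower with 10CA (5 higher and 1 lower with the replicate block). The lower one was LCAT, which esterifies cholesterol in HDL (-0.31, SE 0.06, adjusted p = 0.00554 by edgeR's test). In fatty acid oxidation and PPAR alpha targets 2 of 27 were called, both higher, ACSL1 at 0.36 (adjusted p = 0.05083 without 6N replicate 1) and FABP1, the liver fatty acid binding protein, at 0.59. FABP1 ran from 448 to 683 CPM with 6N and from 720 to 964 CPM with 10CA, and replicate 2 was the lowest in both groups. Its adjusted p of 0.03768 by edgeR's test became 1.973e-08 with the replicate block, and it was not called without 10CA replicate 1 (0.1396), 10CA replicate 3 (0.1504), 6N replicate 2 (0.1946) or 6N replicate 3 (0.07556). With the block 7 members of the list were higher and 3 lower. Among 23 genes of phosphatidylcholine synthesis and phospholipases, LPCAT1 (0.39), EPT1 (0.38) and LPCAT3 were higher and the ethanolamine kinase ETNK2 (-0.36) was lower. With the block 5 of these were higher and 3 lower.

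Further genes with large differences follow. IL17B (chromosome 5, 149371324 to 149404202), a cytokine, had 12.7, 8.49 and 8.61 CPM with 6N and 21.8, 18.6 and 19.7 CPM with 10CA (1.01, SE 0.12, adjusted p = 7.146e-05 by edgeR's test). The cytokine receptor IL21R (0.97), the adhesion molecule L1CAM (0.85) and the ubiquitin ligase RNF145 (0.74), which acts on cholesterol synthesis, were also among the 12 with the largest differences in that direction. On the other side stood GNMT (chromosome 6, 42960758 to 42963880), which methylates glycine, with 19.2, 15.9 and 15.9 CPM with 6N and 10.2, 10.5 and 11.7 CPM with 10CA (-0.65, SE 0.08, adjusted p = 0.0001344). The mitochondrial acetyl-CoA synthetase ACSS1 was lower at -0.65 while its cytosolic relative ACSS2 was higher at 0.56. ACSS1 had 222, 236 and 235 CPM with 6N and 140, 157 and 143 CPM with 10CA. The rest of the 12 were MFSD2B (-1.32), CPSF4L (-1.14), SCLY (-0.71), SPCS2P4 (-0.71), PTCHD3P1 (-0.68) and TRIM73 (-0.65). MFSD2B reached 3.29 CPM and CPSF4L 2.62 CPM at most in these libraries, and SPCS2P4, PTCHD3P1 and TRIM73 are pseudogenes or members of near-identical families whose reads may be split. MFSD2B, SCLY and SPCS2P4 lost their calls without some libraries, with adjusted p up to 0.1412 for MFSD2B without 10CA replicate 3, 0.08839 for SCLY without 6N replicate 2 and 0.08822 for SPCS2P4 without 6N replicate 1.

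Of 19 acute phase proteins 3 were lower with 10CA and 0 higher (4 lower and 3 higher with the replicate block), ORM1 (-0.28), its near copy ORM2 (-0.25) and SAA4 (-0.35). SAA4 lost its call without 10CA replicate 2 or 3 or 6N replicate 1 or 2, with adjusted p of 0.05409 to 0.1327. Of 29 coagulation and complement genes KNG1, the kininogen, was lower (-0.53), and PROS1 (0.24), CFI (0.18) and CPB2 (0.18) were higher. With the block 8 were higher and 2 lower. Of 17 genes of iron handling and BMP signalling, HAMP, the hormone hepcidin, was lower at -0.62 and the BMP target ID2 at -0.38, with 4 lower and 2 higher under the block. HAMP lost its call without 10CA replicate 3 (adjusted p = 0.09105) or 6N replicate 2 (0.08869). Single genes were called among the targets of ATF4 (TRIB3, 0.25), NRF2 (AKR1C2, -0.58) and SRF and YAP (FLNA, 0.25), and AKR1C2 shares reads with close relatives. With the block 6 of 29 ATF4 targets were higher and 2 lower, 2 of 20 NRF2 targets higher and 4 lower, and 4 of 18 SRF and YAP targets higher and 1 lower. In the lists of inflammation, glucose metabolism and lysosomes the calls went in both directions: ICAM1 (0.28) against NFKBIA (-0.28), SLC2A2 (0.24) against KHK (-0.26), and LIPA (0.24) and WIPI1 (0.37) against CTSB (-0.33). With the block there were 4 higher and 1 lower of 18 for inflammation, 4 higher and 3 lower of 18 for glucose metabolism, and 3 higher and 4 lower of 28 for lysosomes. Several of these calls did not hold when a library was left out. With the 6 libraries left out 1 at a time, PROS1, CFI, CPB2, FLNA, AKR1C2, EPT1, WIPI1 and NFKBIA each lost the call in 2 or more fits. The fit without 10CA replicate 3 was among them for all 8. The highest adjusted p in this set was 0.2458, for FLNA without 6N replicate 1. Of the 89 called genes picked by the naming rule and reported here, 61 stayed called without any 1 of the 6 libraries and 28 did not. Neither these fits nor that of the 2 groups alone held the replicate block, so they do not use the pairing of replicate numbers. With the block and all libraries, all 89 stayed called. In a fit of the 2 groups alone 32 of the 89 were not called, with adjusted p from 0.05344 for WIPI1 to 0.1831 for CPB2. Among the lipid genes these were ACAT2, SC5D, HSD17B7, NPC1L1, ELOVL5, DGAT1, FABP1 and EPT1. In bile acid, steroid and drug metabolism they were KLB, HSD3B7, CYP27A1, SLC51A, SHBG, POR and CYP3A5. The others were ORM2, SAA4, HAMP, PROS1, CFI, CPB2, LIPA, WIPI1, ICAM1, NFKBIA, SLC2A2, KHK, AKR1C2, FLNA, PTCHD3P1, SCLY and MFSD2B.

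No member was called in the lists of the unfolded protein response (24), heat shock (16), the cell cycle (34), p53 targets (20), hypoxia (21), mitochondrial mRNAs (13), the nuclear-encoded respiratory chain (30), ribosomal proteins (32), the urea cycle (13), nuclear receptors (28), liver transcription factors (19), claudins (9) and vitamin D metabolism (5) by edgeR's test. Of the 262 distinct genes in these 13 lists 50 had an unadjusted p under 0.05, and 41 were called with the replicate block, 16 higher and 25 lower. Among all 14797 genes tested, 2051 had an unadjusted p under 0.05 and 1133 (7.66%) were called with the block. Summed over the lists DESeq2 made 9 calls and limma-voom 1. With the block 8 hypoxia genes were higher and 1 lower, 3 urea cycle genes higher and 2 lower, 1 p53 target higher and 3 lower, and 1 liver transcription factor higher and 2 lower. In the same fit 3 genes of the unfolded protein response were higher, and 7 cell cycle genes, 3 nuclear receptors, 2 heat shock genes, 2 respiratory chain genes, 1 mitochondrial mRNA, 1 claudin and 1 gene of vitamin D metabolism were lower. Among these, HSP90B1, a chaperone of the endoplasmic reticulum, was at 0.15 (adjusted p = 0.05057, 0.005888 with the block), the pyruvate dehydrogenase kinase PDK1 at 0.26 (0.07026, 0.004133 with the block) and the mitotic activator CDC20 at -0.17 (0.07721, 0.003576 with the block). The ribosomal proteins lay closest together, with a median of -0.04 and 0 called with or without the block.

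The positions relative to DMSO were read from fits that share the 6N and 10CA libraries with the comparison above, so they place the 2 molecules and are no separate support. With 6N, edgeR's test called 169 genes against DMSO (1.14%), 44 higher (0.297%) and 125 lower (0.845%), and 551 (3.72%) with the replicate block. With 10CA it called 0 against DMSO (0.00%), where the lowest adjusted p was 0.5652 by the same test. DESeq2 called 13 and limma-voom 0, and the fit with the replicate block called 32 (0.216%). Of the 14797 tested genes, 1033 had an unadjusted p under 0.05 for 10CA against DMSO by edgeR's test. That count was 737 without 10CA replicate 3, 740 without DMSO replicate 3 and 1379 without 10CA replicate 1. The direct comparison is the test of the difference between the molecules.
For the 22 tested genes of cholesterol synthesis the median log2 difference was 0.31 between 10CA and 6N, -0.40 between 6N and DMSO and -0.08 between 10CA and DMSO. Of the 22, 19 were called lower with 6N against DMSO and 0 higher by edgeR's test. By sign, 0 of 9 in the first arm and 1 of 13 in the second stood above DMSO. For the 155 genes called higher with 10CA the medians were 0.36 for 10CA against 6N, -0.33 for 6N against DMSO and 0.04 for 10CA against DMSO. For the 98 called lower they were -0.31, 0.21 and -0.10. Among the named lipid genes SCD was at -0.81 with 6N and at 0.01 with 10CA, FASN at -1.17 and -0.12, and HMGCS1 at -0.85 and -0.07. For GNMT the DMSO mean of 13.8 CPM lay between those of 6N (17.0) and 10CA (10.8). Against DMSO it was at 0.30 with 6N (adjusted p = 0.1154, and 0.03952 with the replicate block) and at -0.36 with 10CA (0.5728, and 0.07709 with the block), by edgeR's test.

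**Figure D5:**
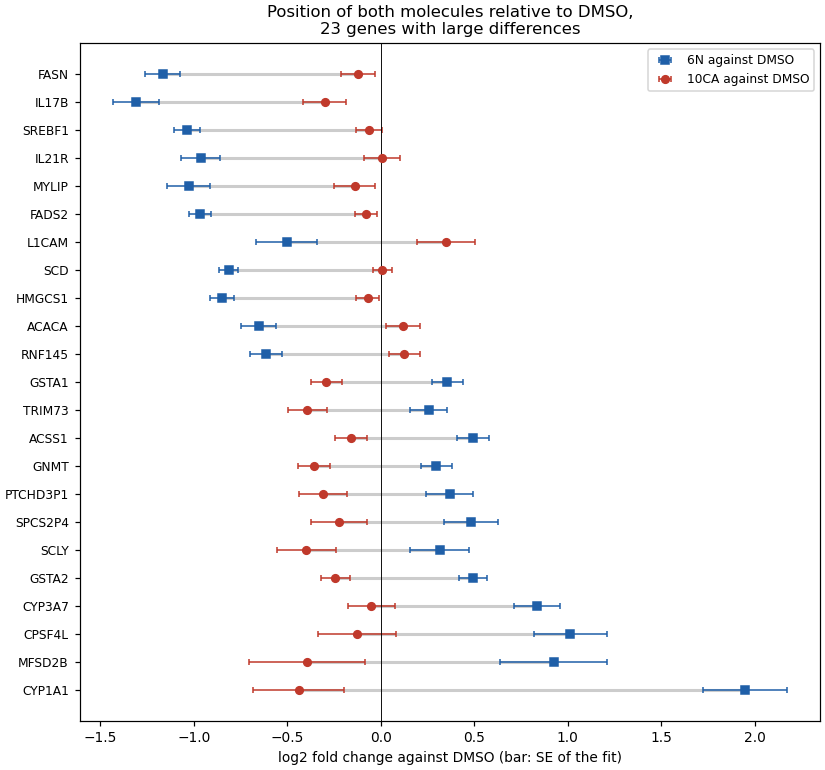
For genes with large differences between 10CA and 6N in either direction, the log2 fold change against DMSO is plotted for 6N (squares) and 10CA (circles), with the standard error of the fit as bars. The 10CA points of FASN, SREBF1, SCD and HMGCS1 lie between -0.12 and 0.01, and the 6N points of the same genes between -1.17 and -0.81.

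The molecule named 6N-10CA was given at the same 10 µM and gives a further point beside the pair. Its mean lay between those of 6N and 10CA in 87 of the 155 genes called higher with 10CA, beyond that of 10CA in 68 and beyond that of 6N in 0. In the 98 called lower it lay between them in 79, beyond 10CA in 6 and beyond 6N in 13. These genes were picked for a gap between 6N and 10CA, which by itself can place the mean of another group between them. The same shares were not counted over all tested genes. The counts therefore describe the called genes, and whether 6N-10CA acts between the pair was not tested. HMGCS1 and SCD stood at 362 and 4219 CPM with 6N-10CA, each above the 10CA mean, and CYP1A1 at 7.19 CPM was at the level of 10CA (7.33 CPM). SLC51A, at 34.6 CPM, stood instead above the 6N mean of 25.8 CPM. CYP7A1, at 21.6 CPM, was among the 6N libraries, whose mean was 20.9 CPM. CYB5A, at 284 CPM, lay between 10CA (227) and 6N (335).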

How the data were processed

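RNA of HepG2 cells was measured in 18 libraries, 3 in each of 6 groups, by single-end reads of 100 bases per the labels' protocols. The table the authors deposited holds raw whole-number counts, 1 row per gene symbol. The submitters' processing notes name GRCh38 and DESeq2. The aligner, the counting tool, the annotation, the strandedness and the vehicle of each compound were not given in the sources used here, so reads of overlapping genes cannot be told apart, and DMSO was taken as the vehicle of both molecules. All 18 columns matched a title, and groups come from the treatment label.

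From the counts, filterByExpr (minimum count 10, total 15) kept 14797 of 24982 rows with a count, which held 99.96% of all counts. Spreadsheet software had made dates of 28 symbols, 22 of them tested and 0 called, and none is named. All 18 libraries entered 1 quasi-likelihood fit with 1 mean per group (edgeR 4.0.16, R 4.3.3, TMM scaling), tested two-sided with Benjamini-Hochberg adjustment at 0.05. Levels are TMM-scaled CPM, except the marker sums, which are CPM of the total counts. The biological coefficient of variation was 6.96%, and 4.42% with the replicate block. For genes at 5 CPM or more the 95% interval reached a median of 0.15 to either side. The floor of 3 counts covers counting error only, and amplified copies, for which the labels name no molecular identifiers, are not independent molecules. Positions come from GENCODE 29 on GRCh38, found through the symbol for 93.8% of the tested genes, and promoters from RefSeq GRCh38.p14.

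The titles give replicate numbers and do not say whether replicates were separate cultures, so the p-values reflect the spread between these libraries alone, and that spread may be technical. Replicates of a group differed by more than sampling noise. Libraries of 10CA and 6N with the same number deviated together (correlations 0.482, 0.343 and 0.272, against -0.399 to 0.0973 for different numbers), so the numbers were taken to pair the samples, and the fit with the replicate number as a block stands beside a named gene where it changes the call and beside the count of a list or comparison where it moves it by over 1.5 times.

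Named genes passed 3 conditions (called, at least 1 CPM on average, groups that did not overlap) and were the 12 largest in each direction or among the 6 members of a list with the smallest p. The member with the smallest p in lists without a call, the tested LRH-1 targets and a few key sterol genes were added, and other genes were chosen after their values were seen. A few genes picked by this rule are left out of the text and figures. The comparison and the 38 lists were chosen with earlier results of these data known. Alternatives were RLE and upper quartile scaling, no filter, a minimum mean of 1 CPM, DESeq2 (1.42.0), limma-voom (limma 3.58.1), a fit of the 2 groups alone, the replicate block and leaving out each library, and, added after the data were seen, the first promoter entry of each gene. The test was checked on simulated data.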

Additional observations from a re-analysis of the deposited data

How the results depend on the processing

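The count of 253 genes called between 10CA and 6N was 423 without a filter on low counts, 496 with DESeq2, 112 when only the 2 groups entered the fit and 1133 with the replicate block, and ran from 141 to 338 when a library was left out. Of these, the genes higher with 10CA (155) were 269, 267, 71 and 612, and 87 to 177 without a library. The genes lower with 10CA (98) were 154, 229, 41 and 521, and 49 to 161 without a library. RLE scaling gave 258 calls, upper quartile scaling 246, a minimum of 1 CPM 304 and limma-voom 244. The 169 genes called for 6N against DMSO were 551 with the block and 111 to 149 without a library. The 0 for 10CA against DMSO became 20 without a filter, 13 with DESeq2, 32 with the block, and 0 to 1 without a library (1 without 10CA replicate 1). The cause of these changes was not tested. Of the 89 named called genes, 88 or 89 kept the call under both other scalings, both other filters, limma-voom and the block, 85 with DESeq2, 57 with the 2 groups alone and 70 to 83 without a library. The block changed no call of these 89 and added 12 of the 34 named genes that were not called. Among the named genes, signs turned only in ones near 0 that were not called, when a library was left out. Their log2 differences ran from -0.0007041 to 0.121 for AFP, -0.119 to 0.0479 for APOA1, -0.0567 to 0.0594 for DIO1, -0.0478 to 0.0264 for ABCC3, -0.0153 to 0.0341 for CCND1, -0.35 to 0.111 for SLC10A1, -0.0381 to 0.0528 for CCNE1 and -0.247 to 0.181 for CYP11A1. Under the other scalings 58.5 to 64.2% of the calls were higher with 10CA, against 61.3% in the fit reported. Genes under 1 CPM lie close to the floor, and there small differences are not detectable at this depth.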

Other observations

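Outside the 38 lists, 171 further genes were called between the molecules (edgeR, adjusted p under 0.05), 101 higher and 70 lower with 10CA. The genes named here were chosen after their values were seen. Higher with 10CA were CYP4F2 (0.68), a cytochrome that oxidises vitamin K and fatty acids, CEMIP (0.62), which takes part in the breakdown of hyaluronan, the Wnt antagonist DKK1 (0.60), the amino acid transporter SLC6A14 (0.59), TMEM135 (0.52), the spermine acetyltransferase SAT1 (0.42), the Notch-related protein DLK1 (0.40) and the mitochondrial carrier UCP2 (0.34). Lower with 10CA were the galectin LGALS2 (-0.55), CDC42EP4 (-0.41), the epoxide hydrolase EPHX1 (-0.36), the kinase inhibitor PEBP1 (-0.32) and the protease inhibitor SERPINA5 (-0.32).

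Of the called genes 3 lay under a mean of 1 CPM and were not named by the rule: PSAPL1 (2.47) and TIGD7 (1.88) were higher with 10CA, and GALC, a lysosomal galactosidase (-1.71), was lower. At such levels the fitted fold rests on few counts.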
